A study of Homo sapiens with 3 samples.

Results

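The loci of 5 integrin genes were examined for binding of the transcription factor TEAD and for the acetylated histone H3K27ac in 786-O cells, an established human clear cell renal carcinoma line. The genes were ITGB1, ITGA3, ITGAV, ITGA5 and ITGA2. A peak counted for a gene when its summit lay within 50 kb of the gene's start site on genome build hg19. That gave 29 of 35241 TEAD regions and 42 of 52667 H3K27ac regions. The data are peak lists from 1 TEAD chromatin immunoprecipitation library and 1 H3K27ac library of the same line, grown in serum-containing RPMI medium, and the labels give no treatment. Cells were fixed with formaldehyde and their chromatin was sonicated. An input library belongs to the series and was not analysed here. The labels name the TEAD antibody no further, while the peak identifiers carry the older factor names TEF1 and TEF3. With 1 library per antibody no value has a replicate check, and no test between conditions was possible. Gene start sites on hg19 other than these 5 were not used, so markers of renal carcinoma could not be looked up to check the cell type label.

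Integrins are cell surface receptors made of an alpha and a beta subunit, and they anchor cells to the extracellular matrix and to the actin cytoskeleton. ITGB1 encodes a beta subunit that pairs with many alpha subunits, including those encoded by the other 4 genes. ITGA3 encodes an alpha subunit for laminin, ITGAV one for vitronectin and other ligands with an RGD sequence, ITGA5 one for fibronectin, and ITGA2 one for collagen. TEAD proteins bind DNA and recruit the co-activators YAP and TAZ, whose activity is known to respond to cell adhesion and tension. H3K27ac marks active promoters and enhancers.

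The promoters of ITGB1 and ITGA5 are shown because a TEAD region of about 10-fold or more covered each start site and each held the core TEAD motif GGAATG. They come from the RefSeq table on GRCh38.p14, which held promoters of 4 of the 5 genes (ITGB1, ITGAV, ITGA5 and ITGA2). Each sequence runs 5′ to 3′ on the gene's strand, and base 251 is the RefSeq start. Capitals mark matches to the TEAD motif GGAATG, the AP-1 motif TGANTCA and an NF-κB motif (GGGA, any 4 bases, CC), all searched on both strands. NF-κB was included because the series' title names it beside TEAD. The ITGB1 stretch is chr10:32958221-32958480 on the minus strand and the ITGA5 stretch is chr12:54419257-54419516 on the minus strand.
ITGB1: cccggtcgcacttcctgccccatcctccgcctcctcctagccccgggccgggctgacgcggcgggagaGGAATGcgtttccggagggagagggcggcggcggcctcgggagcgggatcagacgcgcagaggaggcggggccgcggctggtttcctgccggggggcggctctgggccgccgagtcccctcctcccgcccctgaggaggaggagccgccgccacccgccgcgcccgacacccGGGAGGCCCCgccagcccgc
ITGA5: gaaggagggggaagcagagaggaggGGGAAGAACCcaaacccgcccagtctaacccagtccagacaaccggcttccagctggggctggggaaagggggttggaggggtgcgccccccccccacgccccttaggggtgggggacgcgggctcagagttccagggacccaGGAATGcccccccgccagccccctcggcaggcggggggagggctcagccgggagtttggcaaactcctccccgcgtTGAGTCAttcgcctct

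Distances in this paragraph are from the RefSeq start on GRCh38.p14, which was not aligned to the hg19 start site used for the peaks. For neither gene can they be set beside the distances of the TEAD summits. In ITGB1 the TEAD motif occupied bases 69 to 74, which is 177 to 182 bases before the RefSeq start. In ITGA5 it occupied bases 169 to 174, 77 to 82 bases before the start, and the AP-1 motif occupied bases 245 to 251. The full 300-base windows of ITGAV and ITGA2 held none of the 3 motifs. The TEAD motif occurred in 2 of the 4 integrin promoters and in 14.03% of all 35116 promoters in the table. AP-1 occurred in 1 of the 4 and in 7.71% of all, and the NF-κB motif in 2 of the 4 and in 25.6% of all. Among other genes of the pathway, GGAATG occurred in 1 of 8 promoters of other integrin alpha genes, in 0 of 3 of other beta genes and in 1 of 12 of adhesion complex genes. In the same order AP-1 occurred in 0, 0 and 2 of these promoters and the NF-κB motif in 1, 0 and 6. The lists held 14, 7 and 18 genes, the last with VCL and PXN among them. Genes without a matching promoter in the table were left out. These matches describe the letters only. No hg19 sequence was used here, so sequence under the distal TEAD regions is not shown.

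TEAD regions were more numerous around ITGA3, ITGB1 and ITGAV than around ITGA5 and ITGA2. There were 12 TEAD regions near ITGA3, 8 near ITGB1, 7 near ITGAV, 1 near ITGA5 and 1 near ITGA2. H3K27ac regions numbered 12, 14, 5, 8 and 3 in the same order of genes. ITGA5 therefore had 8 acetylated regions and a single TEAD region, whereas ITGAV had more TEAD regions than acetylated ones.

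**Figure D1:**
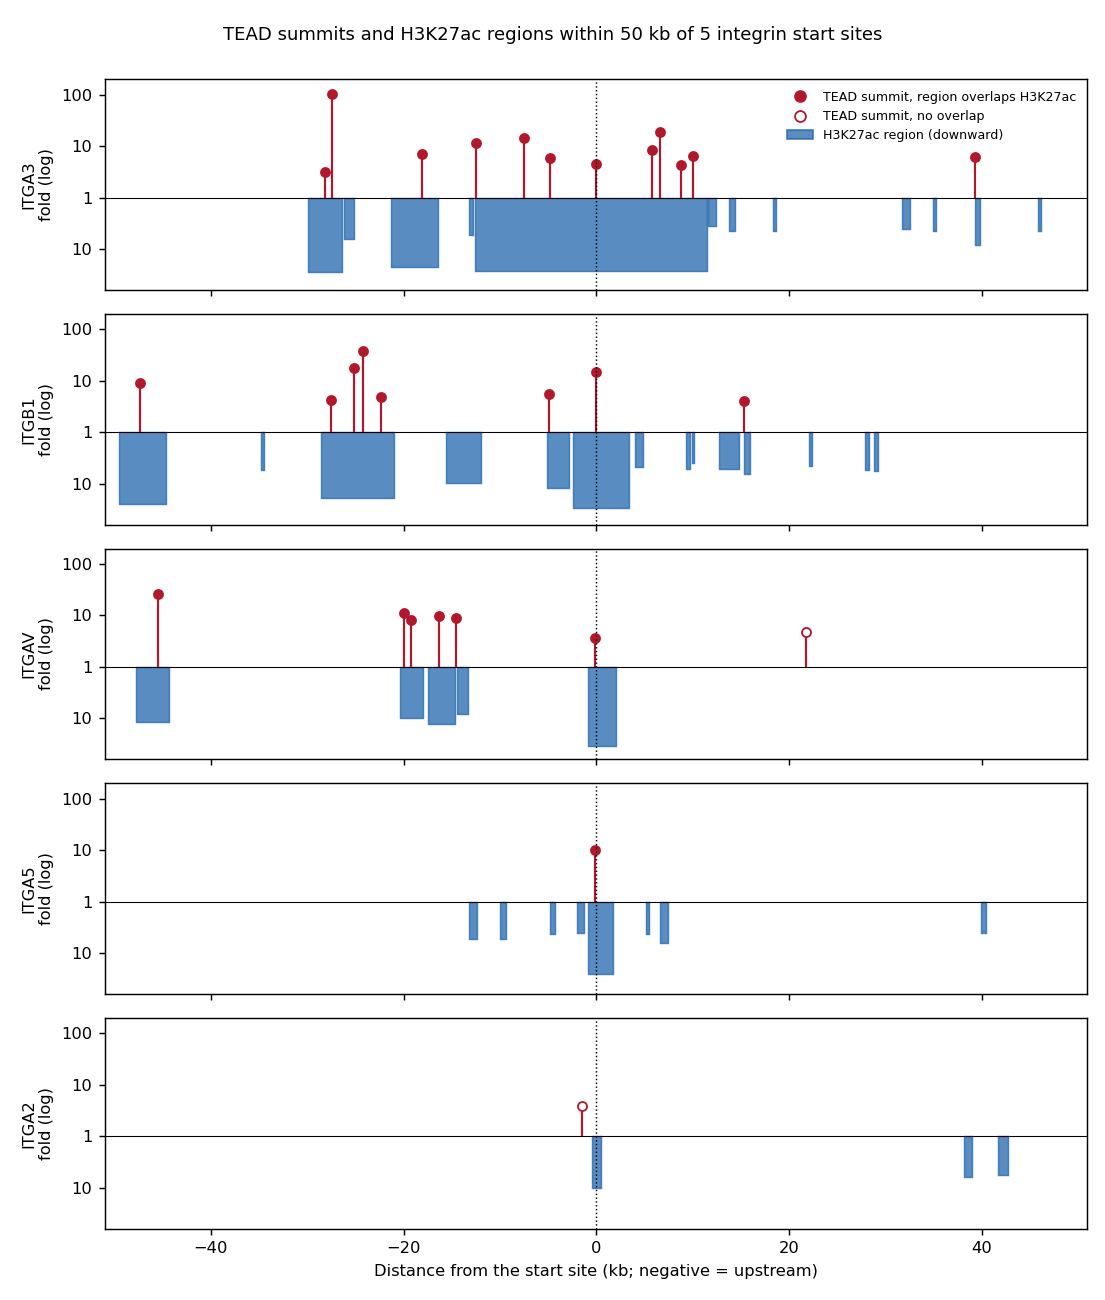
Distance from the start site in kb (horizontal, negative is upstream of the gene) against fold enrichment on a log scale (vertical). Red stems rise to the fold of each TEAD summit, open where the region did not overlap H3K27ac, and blue blocks hang down to the fold of each H3K27ac region over its width. TEAD stems crowd upstream of ITGB1 and ITGAV and on both sides of ITGA3, while ITGA5 and ITGA2 have 1 each.

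For scale, the same count was made around the summit of every H3K27ac region of the genome. The median was 3 TEAD summits within 50 kb (quartiles 2 and 5) and 6 H3K27ac summits (quartiles 3 and 10). At least 12 TEAD summits, as at ITGA3, surrounded 2.28% of these centres. At least 8, as at ITGB1, surrounded 11.6%, and at least 7, as at ITGAV, surrounded 17.0%. At most 1 TEAD summit, as at ITGA5 and ITGA2, surrounded 21.7%. ITGA3 thus stood in the upper tail and the other genes within the common range. Centres close to each other share summits, so these shares are a description.

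**Figure D2:**
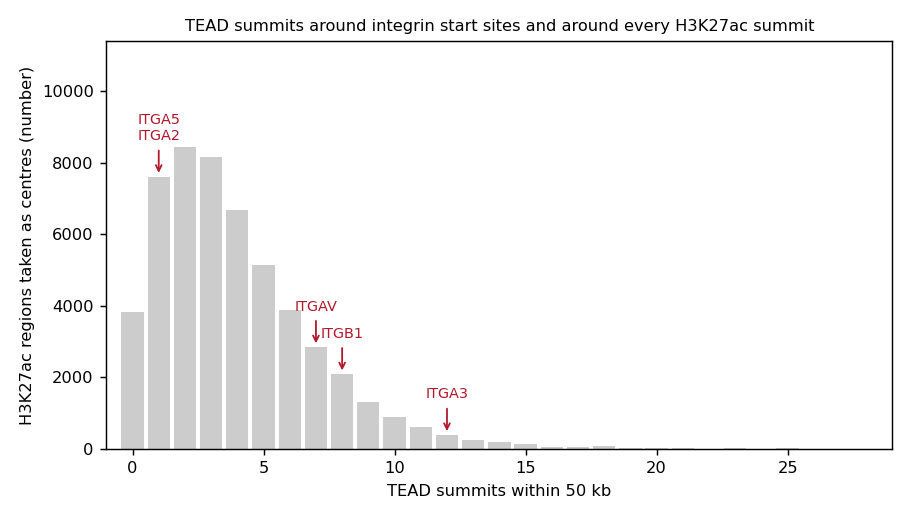
Number of TEAD summits within 50 kb (horizontal) against the number of H3K27ac regions taken as centres that had that count (vertical, grey bars). Arrows mark the counts at the 5 integrin start sites, from 1 at ITGA5 and ITGA2 to 12 at ITGA3.

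The length of acetylated chromatin followed the same order of genes as the TEAD count. H3K27ac covered 37.7 kb of the 100 kb window at ITGA3, 30.1 kb at ITGB1, 12.7 kb at ITGAV, 6.77 kb at ITGA5 and 2.74 kb at ITGA2. Over the 5 windows together, 2.67 TEAD summits lay inside H3K27ac per 10 kb of it, against 2.57 per 10 kb over the whole list. By gene this density was 2.92 at ITGA3, 2.32 at ITGB1, 3.95 at ITGAV, 1.48 at ITGA5 and 0 at ITGA2. The recovered background, the read level the peak caller expected at a summit, was also highest where TEAD regions were most numerous. Its median at TEAD summits was 3.86 reads at ITGA3, 3.51 at ITGB1, 2.64 at ITGAV and 2.10 at ITGA5 and at ITGA2, against 2.45 for all TEAD regions. Its part in the counts was not tested, and DNA copy number was not measured.

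Most TEAD regions near these genes lay in acetylated chromatin. Of the 29, 27 overlapped H3K27ac by 1 bp or more, a share of 93.1% (95% exact binomial interval 77.2 to 99.2%), against 68.4% of all TEAD regions. The summit itself lay inside H3K27ac for 24 of the 29 (82.8%), against 55.3% of all. The intervals cover counting error only and take regions as independent, which neighbours in a window are not. The exceptions were 1 region at ITGAV and the sole region at ITGA2, both weak, at 4.78- and 3.87-fold. Fold was close to that of the list as a whole, with a median of 8.09 for the 29 regions and 7.14 for all. In the top decile of fold, at or above 19.2-fold, lay 3 of the 29 regions (10.3%), against 10.0% of all TEAD regions by construction, so the share was near the background. The median width of the 29 was 569 bp, and that of the whole list 463 bp.

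In 4 of the 5 genes a TEAD region lay directly over the start site, and in each the summit lay just upstream. No share over all gene start sites can be given, because other hg19 start sites were not used. The H3K27ac regions over these 4 starts were in the top decile of H3K27ac fold, at or above 17.6-fold. Of all top-decile H3K27ac regions 72.2% carried TEAD, so 4 of 5 is not read as particular to these genes. The TEAD summits were 51 bp upstream at ITGB1, 16 bp at ITGA3, 91 bp at ITGAV and 95 bp at ITGA5. Fold differed between them. It was 14.7 at ITGB1 (47 reads at the summit, exact 95% Poisson interval of the fold 10.9 to 19.5) and 9.99 at ITGA5 (30 reads, 6.84 to 14.1). It was 4.44 at ITGA3 (19 reads, 2.76 to 6.804) and 3.68 at ITGAV (13 reads, 2.08 to 6.10). The intervals of ITGB1 and ITGA5 overlapped, as did those of ITGA3 and ITGAV. Both stronger fold intervals lay above both weaker ones, that of ITGA5 by a narrow margin. These intervals hold the background fixed, at 2.10 reads for ITGA5, 3.51 for ITGA3 and 2.81 for ITGAV. In summit reads the interval of ITGA5 (20.2 to 42.8) overlapped those of ITGA3 (11.4 to 29.7) and ITGAV (6.92 to 22.2). ITGA5 is therefore not resolved from the weaker ones. No comparison of single regions was tested. At ITGA2 the nearest TEAD summit lay 1473 bp upstream.

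H3K27ac covered all 5 start sites, with a strong region at 4 of them. The share over all gene start sites was not available for H3K27ac either. Fold was 34.4 at ITGAV (28.1 to 41.8), 29.7 at ITGB1 (24.8 to 35.3), 27.3 at ITGA3 (22.4 to 33.0), 25.3 at ITGA5 (19.7 to 31.9) and 9.95 at ITGA2 (6.82 to 14.1). The first 4 overlapped their neighbours in this order and are not resolved, while ITGA2 lay below all of them. At these starts the TEAD interval of ITGB1 lay above those of ITGA3 and ITGAV, while that of ITGA5 did so in fold but not in summit reads. The acetylation intervals of the same genes overlapped. Their order by acetylation is therefore not set against their order by TEAD. Ranks by point value are given within each list only. Among 52667 H3K27ac regions ITGAV ranked 138 and ITGB1 470 by fold, with overlapping intervals. Among 35241 TEAD regions the start-site region of ITGB1 ranked 5763, the highest of the 4 genes with a region over the start. That of ITGAV ranked 34100.

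The strongest TEAD region of ITGB1, ITGA3 and ITGAV lay far upstream and not at the start site. It lay 27.4 kb upstream of ITGA3, 24.2 kb upstream of ITGB1 and 45.5 kb upstream of ITGAV. Its fold was 23.4 times that of the start-site TEAD region at ITGA3, 2.63 times at ITGB1 and 6.97 times at ITGAV. In each of these windows it held about the same share of all summit reads, 41.0% at ITGA3, 42.1% at ITGB1 and 40.5% at ITGAV. Over the 5 genes 22 TEAD summits were upstream and 7 downstream of the start, while H3K27ac summits were 19 upstream and 23 downstream. Of the 22, 4 lay within 100 bp of the start, and several others shared an acetylated region. No share for other genes can be given, so the split is a description only.

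**Figure D3:**
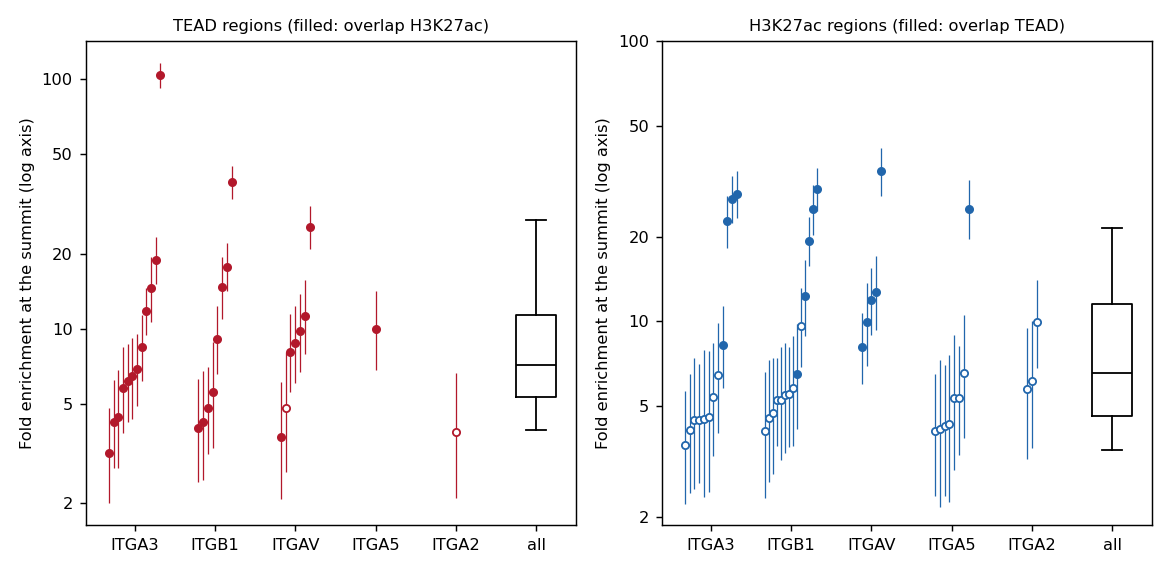
Fold enrichment at the summit (vertical, log axis) of each TEAD region (left) and H3K27ac region (right) by gene, with exact 95% Poisson intervals of the summit reads. Filled points overlap a region of the other list, and the box gives the median, quartiles and the 5th and 95th percentiles of the whole list. Of the TEAD points, 1 each at ITGA3, ITGB1 and ITGAV stands above 19.2-fold, and no point at ITGA5 or ITGA2 exceeds 9.99-fold.

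ITGB1, the shared beta subunit gene on chromosome 10 (start site 33247293, minus strand), had its TEAD binding in an upstream acetylated stretch and at the promoter. The strongest TEAD region ran from 33270667 to 33271819, with 173 reads over a background of 3.51 and a fold of 38.6 (33.1 to 44.8), rank 731 of the list. Beside it, from 33272176 to 33272860, lay a region of 17.7-fold (14.1 to 22.1). Together with regions of 4.80- and 4.20-fold they lay in an H3K27ac region of 7631 bp at 19.4-fold. This H3K27ac region carried 4 TEAD regions and its own summit lay 24.5 kb upstream of the start. Farther out, 47.4 kb upstream, a TEAD region of 9.10-fold sat in an H3K27ac region of 4785 bp at 25.1-fold.

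At the ITGB1 start site the TEAD region from 33246654 to 33247600 lay in an H3K27ac region of 5851 bp. Downstream of the start, 8 H3K27ac summits were present, all between 4.05- and 6.50-fold, and 1 TEAD region of 3.99-fold. An H3K27ac region of 3674 bp and 9.61-fold, 13.2 kb upstream, carried no TEAD region. Joined over gaps of up to 12.5 kb, the acetylated regions formed a domain of 87.8 kb with 19 H3K27ac and 9 TEAD regions. By the sum of fold times width it ranked 97 of 22587 domains and was among the 863 large ones, those above the point of slope 1 of the scaled rank curve. CCDC7 and NRP1, a co-receptor of VEGF and semaphorins, are the coding genes on either side in RefSeq.

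ITGA3, a laminin receptor subunit gene on chromosome 17 (start site 48133340, plus strand), had the strongest single TEAD region of the 5 genes and the widest acetylation. The TEAD region ran from 48105485 to 48106321 with 304 reads over a background of 1.94. Its fold of 104 (92.3 to 116) ranked 4 of all 35241. It lay in an H3K27ac region of 3564 bp at 28.5-fold, whose summit was 403 bp away. A weaker TEAD region in the same acetylated region had 3.18-fold and 20 reads over a background of 5.61.

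A single H3K27ac region of 24.1 kb covered the ITGA3 start, from 48120747 to 48144838, and ranked 6 of 52667 by width. It carried 8 TEAD regions, and 7 H3K27ac regions of the genome, this one included, carried as many or more. A wide region has more room for TEAD, and regions of equal width were not compared. Per 10 kb of H3K27ac the ITGA3 window held 2.92 TEAD summits, against 2.57 over the whole list. The folds of the 8 were 11.8, 14.5, 5.77 and 4.44 from 12.5 kb upstream to the start. From 5.81 to 10.0 kb downstream they were 8.45, 18.9, 4.23 and 6.43. The strongest, 6.63 kb downstream, had 84 reads (15.1- to 23.3-fold) and lay just under the top decile. TEAD was thus spread over the whole acetylated stretch, on both sides of the start. A further TEAD region of 6.91-fold lay 18.1 kb upstream in an H3K27ac region of 4858 bp at 22.8-fold.

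Downstream of the wide region the acetylation at ITGA3 was weak. Of the 7 H3K27ac regions whose summits lay more than 10 kb downstream, 1 reached 8.23-fold and the others stayed between 3.63 and 4.54. The 8.23-fold region, 39.6 kb downstream, carried the only TEAD region downstream of the wide one, at 6.14-fold. The domain over the start spanned 48.7 kb with 8 H3K27ac and 11 TEAD regions and ranked 38 of 22587. RefSeq places DLX3, a homeobox gene, and the long noncoding gene PICART1 upstream of ITGA3, and PDK2, a pyruvate dehydrogenase kinase, downstream.

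ITGAV, a vitronectin receptor subunit gene on chromosome 2 (start site 187454790, plus strand), had few but TEAD-bound acetylated regions. All 5 of its H3K27ac regions carried TEAD, against 41.7% of all H3K27ac regions. The weakest of the 5 had 8.08-fold and the narrowest 1165 bp. Over the whole list, regions with TEAD were stronger and wider in the median (9.63-fold, 1647 bp) than those without (5.31-fold, 659 bp). The 5 of 5 is therefore not read as particular to ITGAV. The strongest TEAD region ran from 187408591 to 187409675, with 102 reads and a fold of 25.6 (20.9 to 31.1). It lay in an H3K27ac region of 3487 bp at 11.9-fold, with 353 bp between the summits.

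From 19965 to 14516 bp upstream of ITGAV, 4 TEAD regions of 8.09- to 11.3-fold lay along 3 neighbouring H3K27ac regions. Their fold intervals overlapped, so they are not ordered. The TEAD region from 187440070 to 187440448 touched 2 of these H3K27ac regions and had its summit in the gap between them. Downstream of the start the window held 1 TEAD region, 21.8 kb from it, with 12 reads and 4.78-fold (2.65 to 8.08). It lay 19538 bp from the nearest H3K27ac region. The domain over the start spanned 22.4 kb, held 5 TEAD regions and ranked 1050, outside the large domains.

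ITGA5, a fibronectin receptor subunit gene on chromosome 12 (start site 54813050, minus strand), had TEAD at its promoter and nowhere else in the window. The TEAD region ran from 54812942 to 54813586 and stood at 9.99-fold with 30 reads over 2.10. It lay in the H3K27ac region of 2585 bp over the start, 397 bp from the acetylation summit. The other 7 H3K27ac regions were narrow and weak, from 299 to 860 bp wide and from 4.05- to 6.53-fold, and carried no TEAD. The TEAD summit lay 95 bp upstream of the hg19 start site. That start site was not aligned to the RefSeq start on GRCh38.p14, so the summit is not set beside the promoter motif. The domain spanned 20.7 kb and ranked 2724.

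ITGA2, a collagen receptor subunit gene on chromosome 5 (start site 52285156, plus strand), had the least of both signals. Its TEAD region, from 52283462 to 52283740, had 11 reads over 2.10 and 3.87-fold (2.09 to 6.66), below which lay 4.39% of the TEAD list. It did not overlap H3K27ac and lay 939 bp from the start-site region, which was 928 bp wide. No TEAD region was listed over the start of ITGA2. For scale, the lowest summit in the whole TEAD list had 7 reads, and the start-site region of ITGAV was listed with 13. Reads at the ITGA2 start were not measured, so weaker binding there was not tested. The other H3K27ac regions lay 38.4 and 42.2 kb downstream, at 6.12- and 5.71-fold and without TEAD. The start-site region joined no other into a domain and ranked 15338.

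Within the 5 windows, TEAD sat mostly on broad and strong acetylated regions, and most narrow and weak ones lacked it. Of the 42 H3K27ac regions 15 carried TEAD (35.7%), against 41.7% of all H3K27ac regions, a share near the background. The 15 had a median fold of 19.4 and a median width of 2916 bp, against 5.22 and 604 bp for the 27 without TEAD. Over the whole list the medians were 9.63-fold and 1647 bp with TEAD and 5.31-fold and 659 bp without. Width and the chance to hold a TEAD region go together, and regions of equal width were not compared. In the top decile of H3K27ac fold, at or above 17.6-fold, lay 8 of the 42 regions (19.05%), against 10.0% of all. All 8 carried TEAD, against 72.2% of the top-decile regions of the genome. They were the start-site regions of ITGB1, ITGA3, ITGAV and ITGA5 and the upstream regions of ITGB1 and ITGA3 described above.

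**Figure D4:**
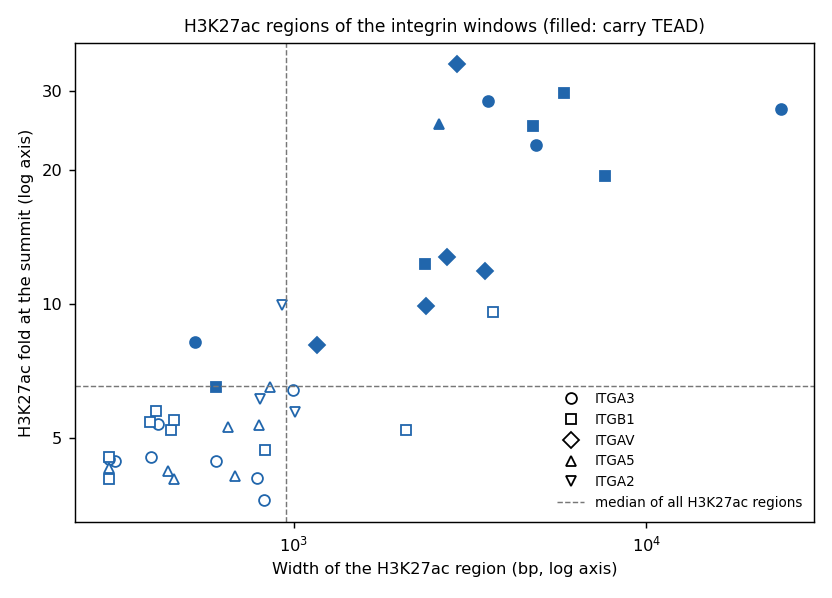
Width in bp (horizontal, log axis) against summit fold (vertical, log axis) of the 42 H3K27ac regions, with 1 symbol per gene and filled symbols for regions that carried TEAD. Dashed lines give the medians of all H3K27ac regions, 950 bp and 6.54-fold. All regions above 10-fold are filled, 2 filled symbols lie left of the width median, and an open ITGB1 symbol of 3674 bp and 9.61-fold lies above both medians.

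TEAD summits did not coincide with the peak of acetylation. Among the 24 TEAD summits inside H3K27ac, the distance to that region's H3K27ac summit ran from 261 to 12914 bp with a median of 683 bp. The median was 400 bp for all 19492 such TEAD summits of the genome. None of the 24 lay within 150 bp, against 11.2% of all. Those 24 summits lay in H3K27ac regions of 6741 bp in the median, and all such summits in regions of 2422 bp, so the distances are not compared further. At the start sites the offset was 281 bp at ITGB1, 450 bp at ITGA3, 261 bp at ITGAV and 397 bp at ITGA5.

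The limit of 50 kb cut through binding at ITGB1. The outermost TEAD members were those 47.4 kb upstream of ITGB1 and 45.5 kb upstream of ITGAV. Just outside lay a TEAD region 52.1 kb upstream of ITGB1 with 27.9-fold and 106 reads, and 1 lay 50.5 kb downstream of ITGA5 with 7.57-fold. The outermost H3K27ac members included 25.1-fold at 46.7 kb upstream of ITGB1 and 4.49-fold at 46.0 kb downstream of ITGA3, while just outside lay 6.94-fold at 51.6 kb upstream of ITGB1.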

How the data were processed

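The authors deposited 1 peak list each for TEAD and H3K27ac, called on single libraries. Per the submitters' processing notes, fastp, Bowtie2 2.4.5 and MACS2 were used with build hg19. Their roles, thresholds and control library were not given in the sources used here. Listed peaks reached down to a −log10 q of 2.03 for TEAD and 2.05 for H3K27ac. The deposited columns used were the authors' fold enrichment ratio over local background, their −log10 q and −log10 p, and the offset of the summit. A deposited score was not used.

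Only the 22 autosomes and X were used, which left out 123 TEAD and 183 H3K27ac peaks on Y. Positions are counted from 1. Summit reads k and background b were solved from the fold, taken as (k + 1)/(b + 1), and from p, taken as a Poisson tail above k. A whole-number k matched −log10 p within 0.002 for 100% of regions. The recovery was tested on simulated data. The median was 24 reads in both lists. Poisson intervals hold the background fixed and reflect counting error alone, as PCR reads without molecular identifiers are not independent molecules. Libraries had no normalization to each other, so TEAD and H3K27ac folds were not compared.

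Overlap means at least 1 bp shared. Named regions were the strongest and nearest TEAD region of each window, top-decile TEAD regions, and the start-site, strongest and widest H3K27ac regions; others were added after their values had been seen. The members and gene lists were chosen with earlier results of these data known. The strand of ITGA3 was taken from general knowledge, those of the other genes from the RefSeq promoter table. Python 3.11.15, numpy 2.4.6, pandas 2.3.3 and scipy 1.17.1 were used.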

Additional observations from a re-analysis of the deposited data

How the results depend on the processing

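Alternatives were windows of 25 and 100 kb either side, peaks of at least 5 in −log10 q or of at least 5-fold, stricter overlap, and each gene's window left out in turn. Of 40 recomputed values 39 stayed within 1.5 times a count or within the 95% interval of a share or median, 5 of the 40 being added after the data had been seen. The exception was the overlapping share of TEAD regions, which was 100% of 20 regions at 5-fold or more, since both regions without overlap were weaker. Otherwise this share ran from 82.8% (summit inside H3K27ac, or 50% of the width covered) to 96.4% (without ITGA2). TEAD counts ran from 20 to 38 and H3K27ac counts from 28 to 59. Median TEAD fold ran from 6.67 (without ITGAV) to 9.88 (at least 5-fold). The alternatives reuse largely the same peaks, and the limits were wide, 77.2 to 99.2% for the share. Staying within the limits is therefore a weak check. With only H3K27ac regions of at least 5-fold as centres, an added alternative, 2.13% had at least 12 TEAD summits. TEAD regions of 11 to 13 summit reads, the sole one at ITGA2 included, rest on few reads. No paired analysis was possible because each antibody had 1 library and no result comes from a test between groups.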
